A study of Mus musculus with 29 samples.

Results

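Protocadherins are cadherin-related proteins of the cell surface, and 34 of their genes were followed here in the caudate nucleus of HdhQ150 mice and wild-type (WT) littermates. The members were all probe sets whose annotation gave exactly 1 gene symbol beginning with Pcdh. The 36 such probe sets covered 34 of the 19938 genes tested, and the probe set with the highest mean was kept for each gene. Of these, 22 were clustered genes, all of the beta cluster (Pcdhb1 to Pcdhb22), and 12 were single genes standing elsewhere (Pcdh1, Pcdh7, Pcdh8, Pcdh9, Pcdh10, Pcdh11x, Pcdh12, Pcdh15, Pcdh17, Pcdh18, Pcdh19 and Pcdh20). No gene of the alpha cluster (14 in RefSeq) or of the gamma cluster (21 in RefSeq) had a probe set of its own under this rule, so "clustered" means beta throughout.

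The series held 29 mice, 1 array each. HdhQ150 is a knock-in line that carries an expanded CAG repeat in the mouse huntingtin gene Htt, and all mice shared the mixed strain background labelled 129/Ola x C57BL6/J. There were 5 WT and 5 HdhQ150 mice at 6 months, 5 WT and 6 HdhQ150 mice at 12 months, and 4 of each genotype at 18 months. The labels name no treatment and do not say whether HdhQ150 mice carried 1 or 2 copies of the allele, and labelled sex was female for 23 mice and male for 6, with females alone at 18 months. Each age came from different mice, so a difference between ages cannot be told apart from one between cohorts or dissections.

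The beta genes lie side by side and each is read from its own promoter, and single neurons are known to use only a few of them, a choice that involves the factor CTCF and cohesin. Their proteins recognise identical copies on neighbouring cells and help neurites tell self from non-self. The single genes, most of them in the delta subgroups, have larger separate loci and tend to mark particular cell populations and connections, among them the projections of the striatum.

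Levels are log2 RMA values, in which 1 unit is a doubling, and levels of different genes are not compared because probe sets differ in brightness. A difference "passed" where the Benjamini-Hochberg adjusted p of limma, over all genes tested, was under 0.05. Htt, which the mutation alters, was lower in every HdhQ150 mouse than in every WT mouse of the same age (differences of -0.39, -0.42 and -0.32 at 6, 12 and 18 months, limma adjusted p = 0.00457, 0.000122 and 0.0523). At 12 months the WT mouse WT-454 stood apart, with a mean correlation to its group of 0.959 where the other groups' lowest values were 0.988 to 0.991, and its effect is given beside the results it moves. The 6-month HdhQ150 mouse 1023, labelled female, had the Xist and Eif2s3y levels of a male (5.95 and 8.30). Without it 0.943% of all genes, in place of 0.0251%, passed between genotypes at 6 months. Striatal markers Penk, Ppp1r1b (DARPP-32), Drd2 and Drd1 had group means of 11.52 to 12.75, 10.79 to 11.69, 10.25 to 11.41 and 9.17 to 10.24. These levels do not show how much neighbouring tissue was taken along. Relative to the mean of all mice, choroid plexus and ependyma markers averaged -0.37 to 1.02 per mouse among 6-month WT mice. Thalamic markers averaged -0.18 to 0.87 in the same mice. In whole tissue, fewer cells of a type and less RNA per cell cannot be told apart.

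At 12 and 18 months the clustered genes were mostly higher in HdhQ150 than in WT mice, by a small amount per gene. The median difference over the 22 clustered genes was -0.01 at 6 months, 0.23 at 12 months and 0.23 at 18 months, against 0.01, 0.01 and -0.00 over all genes. The 12-month value was 0.14 without WT-454, and the 6-month value -0.06, with 8 of 22 genes above 0, without 1023. The difference was above 0 for 10, 21 and 22 of the 22 clustered genes at the 3 ages, where 52.3%, 52.7% and 48.3% of all genes lay above 0. Among the 9613 genes within the same range of mean level the shares above 0 were 55.4%, 54.6% and 49.7%. The clustered genes varied together among mice, as given below, so such counts are not of independent genes. For the 12 single genes the medians were 0.02, 0.05 and 0.05, with 8, 7 and 7 of 12 above 0.

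Few single differences passed the threshold. At 6 months 0 of 34 protocadherins passed, against 0.0251% of all genes, and 0 of 34 had an unadjusted p under 0.05, against 13.7% of all genes. At 12 months 1 of 34 rose (Pcdhb15) and none fell, against 0.336% of all genes that rose. The number with an unadjusted p under 0.05 is not given for that age. At 18 months 0 of 34 passed, against 0.135% of all genes, and 11 clustered and 3 single genes had an unadjusted p under 0.05, 14 of 34 against 5.81% of all genes. Without 1023 the members past the threshold were Pcdhb15 and Pcdh11x at 12 months (adjusted p = 0.0312 and 0.0268) and Pcdhb21 at 18 months (0.0481). Differences that did not pass ranged from -0.30 (Pcdhb19) to 0.21 (Pcdh1) at 6 months, from -0.16 (Pcdh7) to 0.37 (Pcdh11x) at 12 months and from -0.11 (Pcdh17) to 0.48 (Pcdhb21) at 18 months. None of the 34 genes showed a genotype difference that changed between ages by limma. This held from 6 to 12 months (0.00502% of all genes passed), from 12 to 18 months (0%) and from 6 to 18 months (0%). An unadjusted p under 0.05 was found in these tests for 5, 0 and 5 of the 34 genes (2, 0 and 4 of them clustered), against 6.51%, 2.07% and 8.17% of all genes. Thus no test showed that a genotype difference was larger at the older ages.

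**Figure D1:**
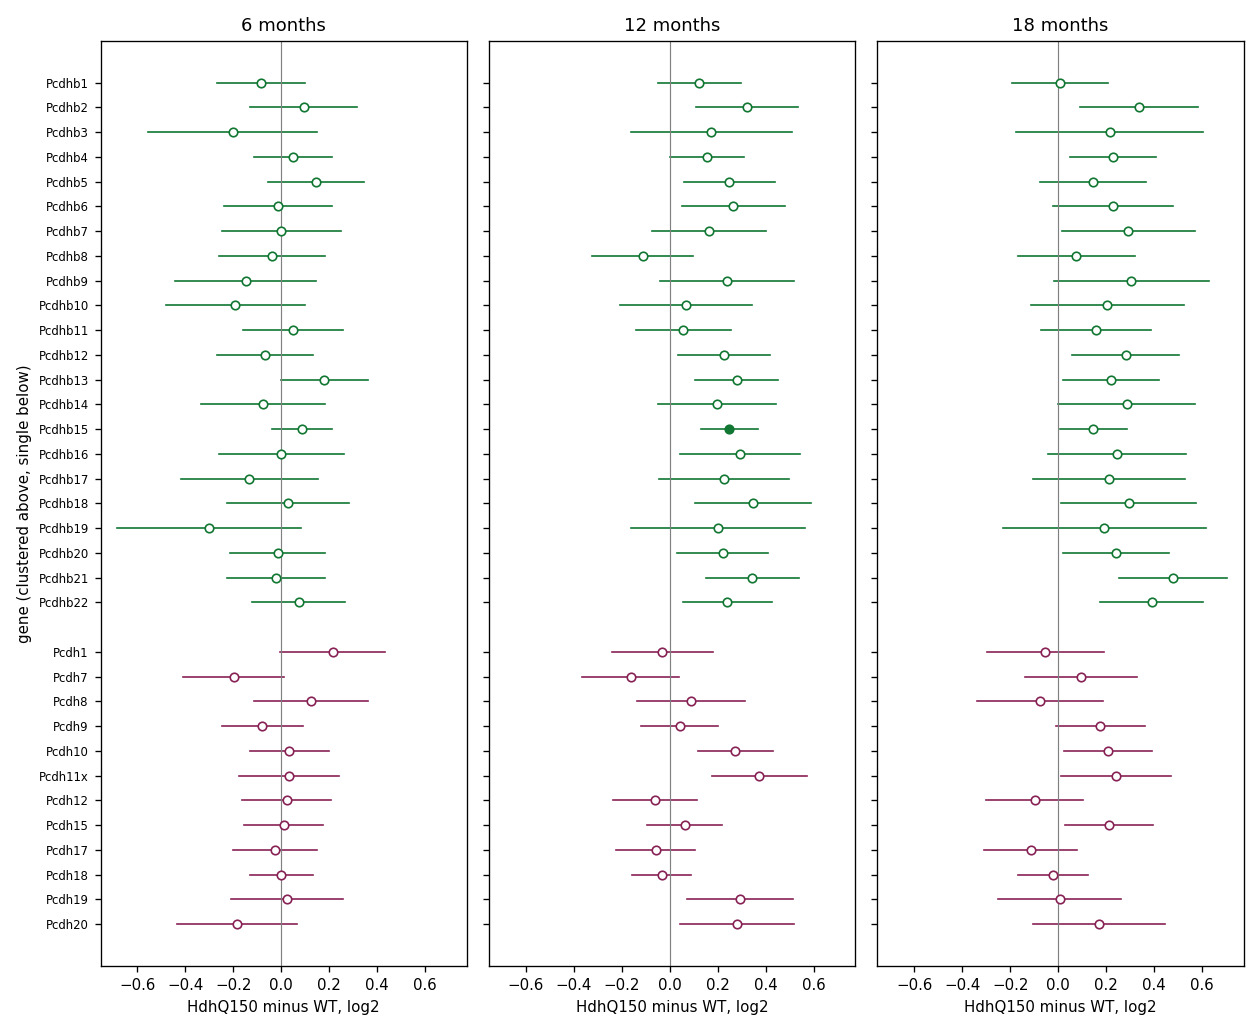
Difference between HdhQ150 and WT mice on the log2 scale (horizontal axis) for the 22 clustered genes (green, above) and the 12 single genes (purple, below) at 6, 12 and 18 months. Circles are the fitted differences, lines their 95% confidence intervals, and a filled circle (Pcdhb15 at 12 months) passed the threshold of 0.05 on the adjusted p. Clustered genes scatter on both sides of 0 at 6 months and lie above it for 21 and 22 of 22 genes at 12 and 18 months.

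Averaged within each mouse, the clustered genes separated the genotypes at 18 months and not at the earlier ages. Each gene was first set relative to its own mean over the 29 mice. The mean of the 22 clustered genes was -0.09 ± 0.117 (SD, n = 5) in WT and -0.08 ± 0.133 (SD, n = 5) in HdhQ150 mice at 6 months. At 18 months it was 0.01 ± 0.0706 (SD, n = 4) in WT and 0.24 ± 0.0736 (SD, n = 4) in HdhQ150 mice, and the lowest HdhQ150 mouse (0.17) stood above the highest WT mouse (0.11). At 12 months the WT mean was -0.11 ± 0.242 (SD, n = 5) and the HdhQ150 mean 0.07 ± 0.182 (SD, n = 6), with HdhQ150 mice ranging from -0.21 (mouse 462) to 0.30 (mouse 487). WT-454 alone lay at -0.53, and the other 4 WT mice of that age had a mean of -0.00 ± 0.0639 (SD), inside the HdhQ150 range. Without WT-454, 18 of the 22 clustered genes had a 12-month genotype difference above 0 and none passed the threshold, where 58.1% of all genes then lay above 0. No test is given for these means, because the genes averaged were chosen with earlier results of these data known.

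**Figure D2:**
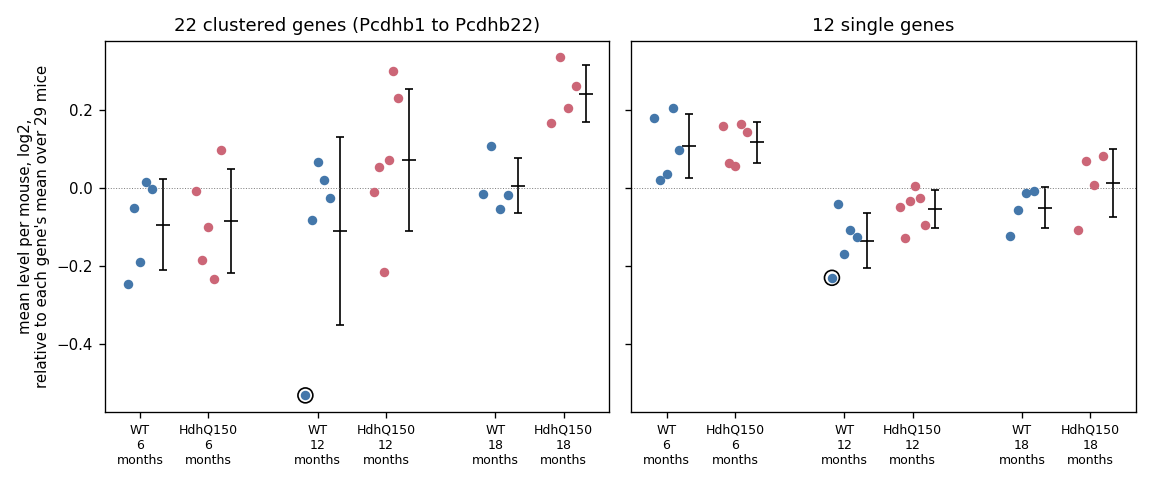
Mean log2 level per mouse of the 22 clustered genes (left) and the 12 single genes (right), each gene relative to its mean over the 29 mice, by genotype and age. Points are mice (blue WT, red HdhQ150), bars the group mean and SD, and the ring marks WT-454. For the clustered genes the 18-month HdhQ150 mice (0.17 and above) do not overlap the 18-month WT mice (0.11 and below), and for the single genes both 12-month groups lie below both 6-month groups on average.

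Pcdhb15 was the clustered gene that passed in a comparison of genotypes. At 12 months its level was 7.79 (WT-454), 7.95, 8.00, 7.88 and 8.01 in the WT mice, and in the 6 HdhQ150 mice it had a lowest value of 8.03, a median of 8.14 and a highest of 8.32. Every HdhQ150 mouse lay above every WT mouse of that age. The fitted rise was 0.25 (SE 0.0586, 1.19-fold, limma adjusted p = 0.0299). It did not pass when WT-454, WT-461, WT-508, 453, 464, 487 or 526 was left out in turn (limma adjusted p 0.0516 to 0.091), and the difference itself stayed between 0.22 and 0.28. At 18 months it was 8.12, 8.02, 7.93 and 8.14 in WT and 8.21, 8.21, 8.19 and 8.19 in HdhQ150 mice, again without overlap, but with a smaller difference that did not pass (0.15, SE 0.068, adjusted p = 0.81). Pcdhb5 was the other clustered gene whose groups did not overlap at 12 months (0.25, SE 0.0928, limma adjusted p = 0.308), so 2 of 34 members were higher in every HdhQ150 mouse, against 0.687% of all genes. Pcdhb21 had a difference of 0.34 at that age (SE 0.0947, adjusted p = 0.0821) and Pcdhb13 one of 0.28 (SE 0.0847, adjusted p = 0.135), with overlapping groups, and without WT-454 these were 0.26 and 0.16. Without WT-454 the number past the threshold at 12 months was 0, where 2.21% of all genes passed. Without the HdhQ150 mouse 462 it went from 1 to 6, which added Pcdh10, Pcdhb2, Pcdhb13, Pcdhb18 and Pcdhb21. Mouse 462 was the lowest of its group in the clustered mean, so leaving it out raises that mean. The share of all genes that passed in that fit is not given here.

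At 18 months the clearest separation was in Pcdhb21. Its level was 6.28, 6.52, 6.42 and 6.52 in the WT mice and 7.05, 6.88, 6.90 and 6.84 in the HdhQ150 mice. The groups lay 0.48 apart (SE 0.11, 1.39-fold), without overlap, yet the limma adjusted p was 0.0896. The difference passed when WT-454 was left out of the shared fit (adjusted p = 0.0331), or when arrays were weighted by their quality (0.0335), with nearly the same size (0.48 in both). Pcdhb22 was next, with 6.79, 7.09, 6.87 and 6.97 in the WT mice and 7.28, 7.35, 7.33 and 7.32 in the HdhQ150 mice. The HdhQ150 mice were tightly grouped above all WT mice, and the difference of 0.39 (SE 0.105, adjusted p = 0.207) passed with array weights (0.0367). Pcdhb2 had a difference of 0.34 (SE 0.12, adjusted p = 0.519) with overlapping groups.

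In all, 9 of the 22 clustered genes were higher in every 18-month HdhQ150 mouse than in every WT mouse of that age (Pcdhb4, Pcdhb12, Pcdhb13, Pcdhb14, Pcdhb15, Pcdhb18, Pcdhb20, Pcdhb21 and Pcdhb22), and of the single genes Pcdh11x alone was. That makes 10 of 34, against 2.2% of all genes. The clustered genes varied together among mice of the same group (median r 0.57). The 9 were measured in the same mice and are not separate results. At 6 months 1 of 34 met the same description (Pcdhb13), against 1.84% of all genes. Pcdhb13 had 7.21 to 7.42 in the 6-month WT mice and 7.46 to 7.64 in the HdhQ150 mice, a difference of 0.18 (SE 0.0891, adjusted p = 0.37). The first gene of the row, Pcdhb1, showed the smallest difference of the cluster at 18 months (0.01, 95% confidence interval -0.19 to 0.21).

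**Figure D3:**
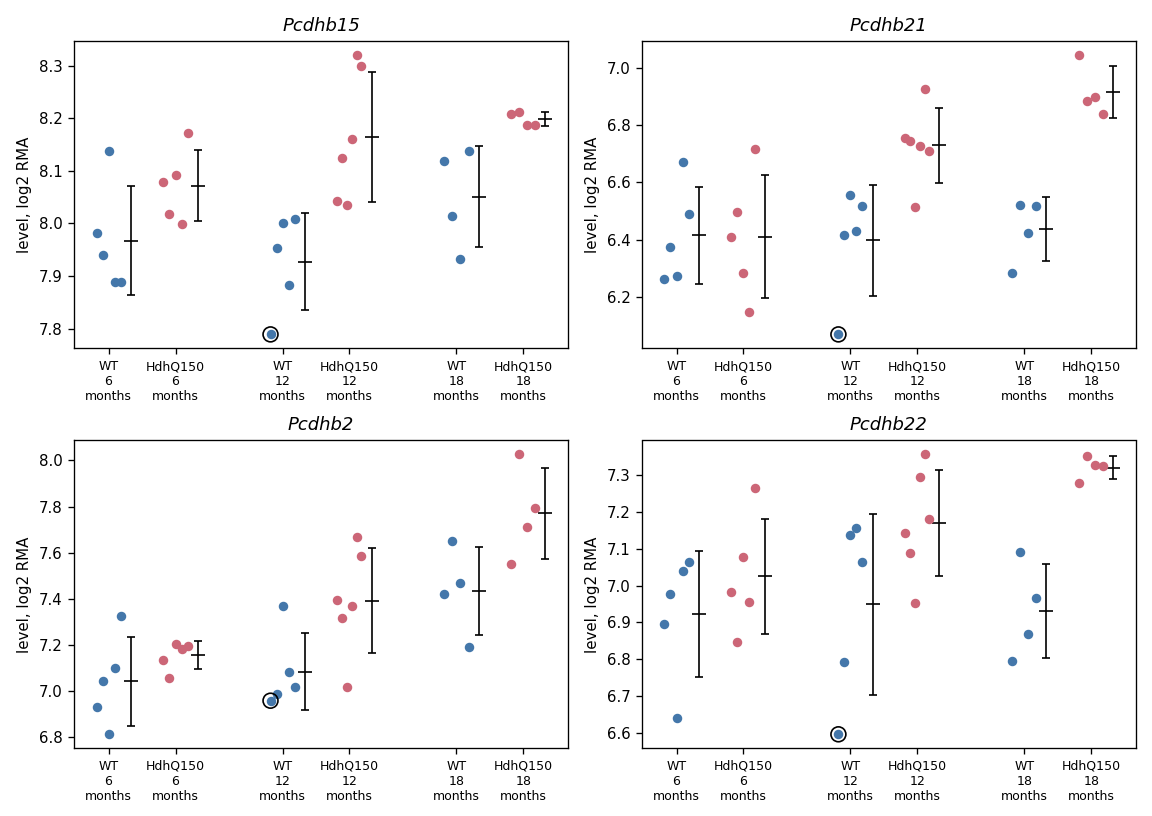
Level (log2 RMA) of 4 clustered genes in each mouse by genotype and age. Points are mice (blue WT, red HdhQ150), bars the group mean and SD, and the ring marks WT-454; the vertical axes differ between panels and do not start at 0. Pcdhb15 does not overlap between genotypes at 12 and 18 months, Pcdhb21 and Pcdhb22 do not overlap at 18 months, and Pcdhb2 rose with age in HdhQ150 mice.

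Along the cluster, positive differences were found in both the first and the last genes at 18 months. The numbers of the genes follow their order on the chromosome in RefSeq. At 12 months the median difference was 0.16 over the first 11 genes (range -0.11 to 0.32) and 0.24 over the last 11 (range 0.20 to 0.35). Without WT-454 these medians were 0.07 (range -0.17 to 0.31) and 0.16 (range -0.06 to 0.26), so at that age both stretches held genes below 0. At 18 months the medians were 0.21 (range 0.01 to 0.34) and 0.25 (range 0.15 to 0.48). Beta genes are close in sequence, and the probes of each probe set were not examined here, so signal shared between neighbouring copies cannot be told apart from their own.

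The clustered genes also varied together among mice of the same group. After each gene's group means were removed, the correlation over the 29 mice was above 0 for 222 of the 231 pairs of clustered genes, with a median r of 0.57. Pairs of single genes had a median r of 0.10 (38 of 66 above 0), and pairs of a clustered with a single gene a median of 0.05. Without WT-454 the medians were 0.52, 0.06 and 0.03 over 28 mice. These correlations share arrays, tissue make-up and, among beta genes, possibly probe sequence, and are given as descriptions. Pcdhb10 followed the others most closely (mean r with the other 21 of 0.69) and Pcdhb17 with Pcdhb19 was the closest pair (r = 0.89), whereas Pcdhb1 (0.03) and Pcdhb5 (0.19) had the lowest mean r. Without WT-454 these means were 0.65 for Pcdhb10, 0.17 for Pcdhb1 and 0.18 for Pcdhb5. Within groups the SD between mice was smallest for Pcdh18 (0.0892) and Pcdhb15 (0.093) and largest for Pcdhb3 (0.304) and Pcdhb19 (0.343), so a difference of the same size stood out more in Pcdhb15 than in Pcdhb19.

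Pcdh10, a single gene known for its part in the outgrowth of striatal axons, varied with the cluster. Its mean r with the 22 clustered genes was 0.60, against -0.29 (Pcdh17) to 0.41 (Pcdh9) for the other 11 single genes. Its closest partner was Pcdhb19 (r = 0.89, and 0.85 without WT-454), and 17 of the 22 clustered genes had an r above 0.5 with it. Without WT-454 its mean r was 0.52 and the next single gene was Pcdh7, with 0.26. WT-454 was the lowest 12-month WT mouse for Pcdh10 (9.11) as for many clustered genes, and the relation was present without that mouse.

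**Figure D4:**
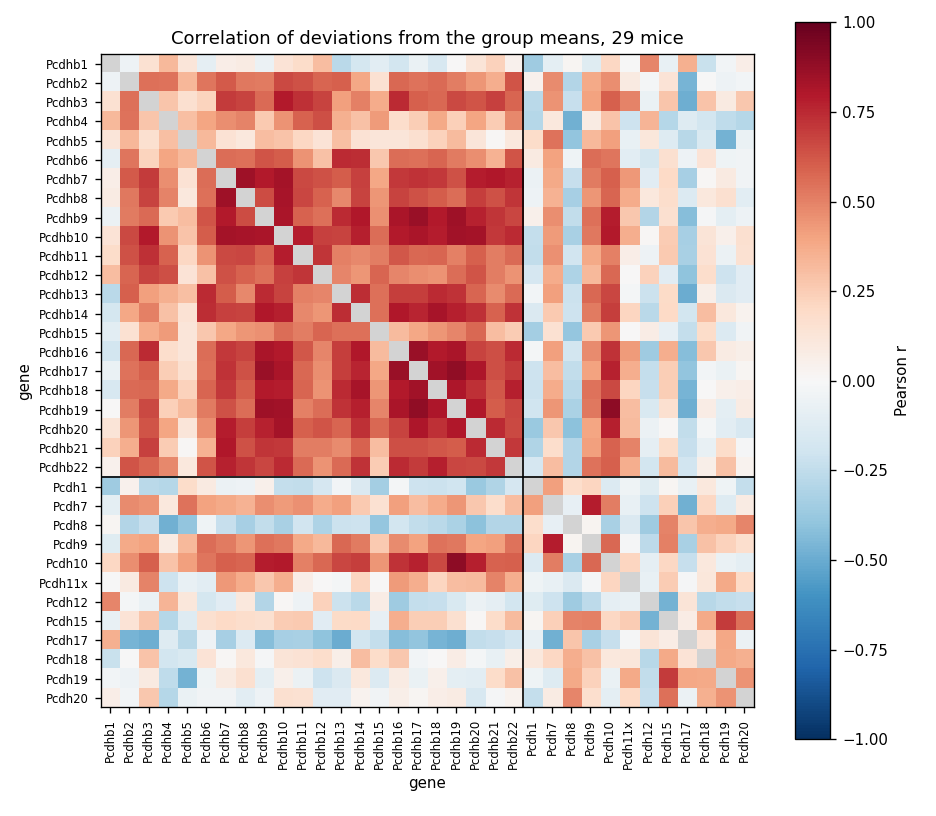
Pearson correlation over 29 mice between the deviations of each pair of protocadherins from their group means (colour scale from -1 to 1, diagonal grey), with the 22 clustered genes first and the 12 single genes after the black line. The clustered block is mostly positive (median r 0.57), least so for Pcdhb1 and Pcdhb5, and of the single genes Pcdh10 follows it most closely (mean r 0.60).

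No single protocadherin passed in a comparison of genotypes, and the largest difference was that of Pcdh11x at 12 months. Pcdh11x, an X-linked gene of the delta subgroups, stood at 8.79 (WT-454), 9.04, 9.13, 9.04 and 8.61 in 12-month WT mice and between 9.07 and 9.43 (median 9.32) in HdhQ150 mice. The groups overlapped in 1 mouse on each side, with a difference of 0.37 (SE 0.0965, limma adjusted p = 0.0563). At 18 months it was 8.69, 8.76, 8.84 and 8.83 in WT and 9.08, 9.06, 9.08 and 8.87 in HdhQ150 mice, with no overlap and a difference of 0.24 (SE 0.112, adjusted p = 0.81). Its 12-month difference passed without WT-488 (0.0391) or without 526 (0.0303), and that of Pcdh10 (0.27, SE 0.0771, adjusted p = 0.0918, or 0.18 and 0.179 without WT-454) passed without 462 (0.0338). Pcdh19, the X-linked gene of a female-limited epilepsy, and Pcdh20 had differences of 0.29 (SE 0.108, adjusted p = 0.296) and 0.28 (SE 0.116, adjusted p = 0.407) at 12 months. Pcdh12, a gene of vascular endothelium, stayed between -0.10 and 0.02 at the 3 ages, and Pcdh18 between -0.03 and 0.00.

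More single genes passed between ages than between genotypes, and most of them were lower at 12 than at 6 months. In WT mice 8 of the 12 fell from 6 to 12 months (Pcdh7, Pcdh8, Pcdh9, Pcdh10, Pcdh11x, Pcdh15, Pcdh19 and Pcdh20), against 12.6% of all genes, and 1 rose (Pcdh17). Of the clustered genes 1 rose (Pcdhb8) and none fell, so 2 of 34 members rose, against 13.1% of all genes. In HdhQ150 mice 6 single genes fell (Pcdh1, Pcdh7, Pcdh8, Pcdh10, Pcdh15 and Pcdh18), against 11.2% of all genes. Pcdh17, Pcdhb8, Pcdhb14 and Pcdhb21 rose there, 4 of 34 against 11.9% of all genes. The median change of the 12 single genes was -0.34 in WT and -0.18 in HdhQ150 mice, and that of all genes 0.03 and 0.04.

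The fall of Pcdh20 was the largest of the WT change. Its level was 7.48, 6.99, 7.06, 7.21 and 7.38 at 6 months and 6.57 (WT-454), 6.88, 6.35, 6.73 and 6.55 at 12 months, so that every older mouse lay below every younger one. The fitted change was -0.62 (SE 0.122, 1.54-fold lower, limma adjusted p = 0.00061). In HdhQ150 mice Pcdh20 changed by -0.15 (SE 0.116, adjusted p = 0.356), and the difference between these changes did not pass (0.46, SE 0.17, adjusted p = 0.709). Pcdh10 fell from 9.77, 9.97, 9.82, 9.96 and 9.84 to 9.11 (WT-454), 9.54, 9.53, 9.52 and 9.52, a change of -0.45 (SE 0.081, 1.37-fold lower, adjusted p = 0.000253). It was still lower in WT mice at 18 months than at 6 (-0.38, SE 0.0885, adjusted p = 0.0108), as was Pcdh11x (-0.45, SE 0.111, adjusted p = 0.0147, lost without WT-400 or WT-1018, 0.053 to 0.0568). These were the 2 of 34 members that fell from 6 to 18 months in WT mice, against 2.95% of all genes, and none rose. Between 12 and 18 months 0 of 34 passed in WT mice, against 5.87% of all genes, with 6 of 34 (4 single and 2 clustered) at an unadjusted p under 0.05, against 15.5% of all genes.

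Pcdh15, a component of the tip links of inner ear hair cells that is also transcribed in brain, and Pcdh17, which is found at synapses of corticobasal ganglia circuits, moved in opposite directions between 6 and 12 months and, in HdhQ150 mice, back by 18 months, Pcdh15 by 1 of its 2 probe sets. By the brighter probe set Pcdh15 fell from 6 to 12 months by 0.40 in WT and by 0.35 in HdhQ150 mice (SE 0.081 and 0.077, limma adjusted p = 0.000725 and 0.00153). The other probe set gave -0.07 and -0.24 (adjusted p = 0.62 and 0.0802) and did not pass. In HdhQ150 mice it was 7.67, 7.76, 7.58, 7.86 and 7.75 at 6 months, between 7.22 and 7.45 (median 7.39) at 12 months, and 7.63, 7.79, 7.63 and 7.90 at 18 months. The 12-month mice lay below all others of that genotype, and the rise from 12 to 18 months was 0.36 (SE 0.0842, adjusted p = 0.00752, or 0.0557 without mouse 426). The other probe set differed by -0.04 there (adjusted p = 0.876). Pcdh17 was 9.37, 9.37, 9.24, 9.35 and 9.26 in 6-month WT mice and 9.74 (WT-454), 9.55, 9.41, 9.58 and 9.66 in 12-month WT mice. That rise of 0.27 (SE 0.0853, adjusted p = 0.0204) did not pass without WT-454 (0.103) or WT-1020 (0.0557), although the 12-month mice all stood above the 6-month mice. In HdhQ150 mice Pcdh17 rose by 0.24 from 6 to 12 months (adjusted p = 0.0339) and fell by 0.34 from 12 to 18 months (adjusted p = 0.0163), the first lost without 451, 462, 464, 526, 1001, 1003 or 1016 and the second without 412, 426 or 462. WT means of Pcdh17 turned back too, with 9.32, 9.59 and 9.30 at 6, 12 and 18 months. Those of Pcdh15 by its brighter probe set were 7.71, 7.31 and 7.53. Neither WT change from 12 to 18 months passed.

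The stretches of 250 bases before the annotated starts of Pcdh15 and Pcdh17 are shown because these genes, Pcdh15 by its brighter probe set, moved in opposite directions. They come from RefSeq (build GRCm38.p6), which gave such windows for 9 of the 12 single genes, and are written 5′ to 3′ on the plus strand. Pcdh15 is at chr10:73821617-73821866 and Pcdh17 at chr14:84443313-84443562. Capitals mark matches, on either strand, to the TATA box letters TATAAA or to the GC box letters GGGCGG (reverse complement CCGCCC).
Pcdh15: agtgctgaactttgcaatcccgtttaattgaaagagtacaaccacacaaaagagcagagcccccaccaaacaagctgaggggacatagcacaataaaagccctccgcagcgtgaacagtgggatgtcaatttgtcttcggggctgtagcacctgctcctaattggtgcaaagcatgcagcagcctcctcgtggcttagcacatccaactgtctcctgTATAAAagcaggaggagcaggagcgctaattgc
Pcdh17: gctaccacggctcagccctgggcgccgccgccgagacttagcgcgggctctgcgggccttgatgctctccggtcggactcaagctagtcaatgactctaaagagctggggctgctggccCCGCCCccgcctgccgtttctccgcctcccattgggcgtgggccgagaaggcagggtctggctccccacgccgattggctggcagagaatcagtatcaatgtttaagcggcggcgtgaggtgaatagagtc
The Pcdh15 window held 1 TATA box match close to the start, no GC box match, 6 CG dinucleotides and 50.4% G and C. The Pcdh17 window held 1 GC box match, no TATA box match, 21 CG dinucleotides and 64.8% G and C. Of all 32851 RefSeq windows of this length, 12.4% held a TATA box match and 32.7% a GC box match. Among the other single genes, Pcdh8 had a TATA box match, and Pcdh10, Pcdh18 and Pcdh19 had a GC box match. A match is a run of letters and not evidence of use.

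**Figure D5:**
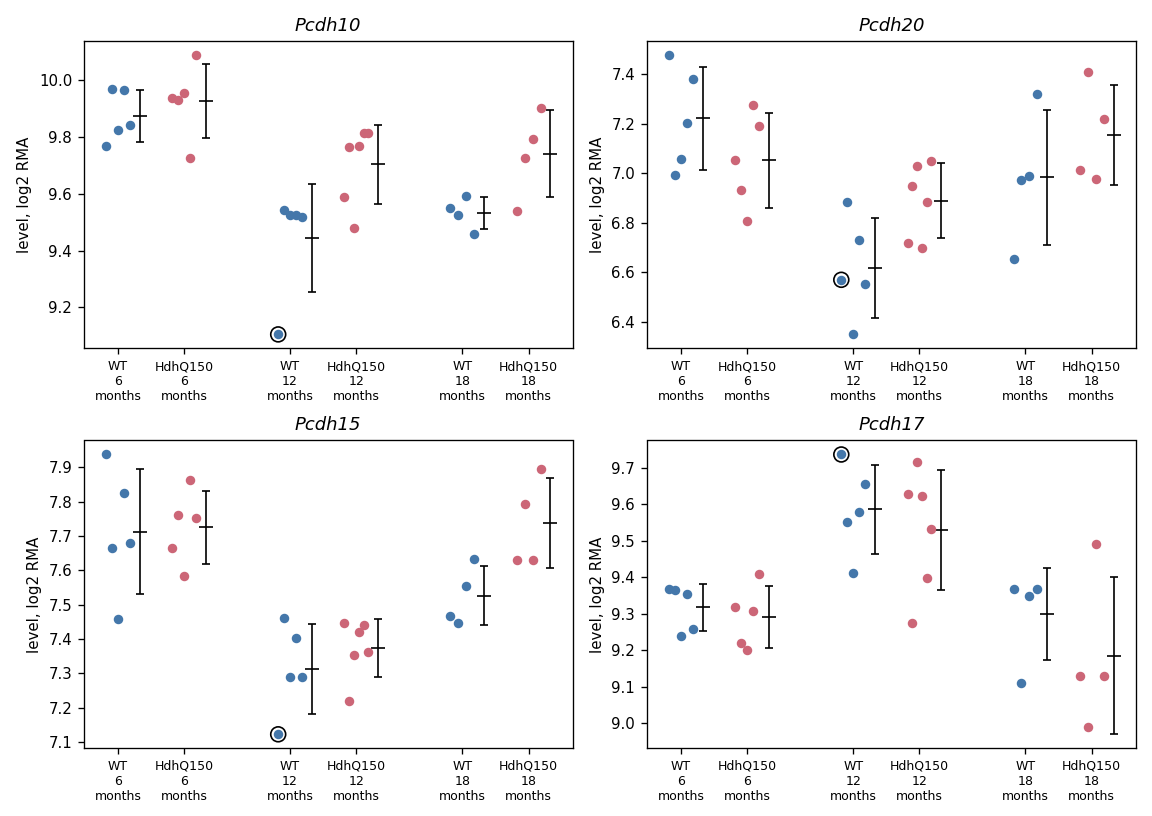
Level (log2 RMA) of 4 single protocadherins in each mouse by genotype and age. Points are mice (blue WT, red HdhQ150), bars the group mean and SD, and the ring marks WT-454; the vertical axes differ between panels and do not start at 0. Pcdh10, Pcdh20 and Pcdh15 were lower and Pcdh17 higher at 12 than at 6 months in WT mice, and Pcdh15 (brighter probe set) and Pcdh17 were back near their 6-month levels at 18 months in HdhQ150 mice. The WT means at 6 and 18 months were 7.71 and 7.53 for Pcdh15 and 9.32 and 9.30 for Pcdh17.

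Several single genes that moved with age have further measurements. Pcdh8, which is induced by neuronal activity and takes N-cadherin off the membrane, fell from 6 to 12 months by 0.43 in WT and by 0.47 in HdhQ150 mice (SE 0.116 and 0.111, limma adjusted p = 0.00743 and 0.00275). It was still lower at 18 than at 6 months in HdhQ150 mice (-0.46, SE 0.123, adjusted p = 0.0285), 1 of 34 members against 2.37% of all genes, a call lost without 383, 412, 415, 1001, 1003 or 1017 (0.0514 to 0.0829). From 12 to 18 months in HdhQ150 mice, Pcdh7, Pcdh9 and Pcdh15 rose (0.37, 0.32 and 0.36; 3 of 34 against 4.18% of all genes) and Pcdh17 alone fell (1 of 34 against 1.61% of all genes). The rises of Pcdh7 and Pcdh9 were lost without 412 (adjusted p = 0.254 and 0.117), 426, 462 or 526, and that of Pcdh7 also without 487. In WT mice Pcdh7 fell from 6 to 12 months by 0.38 (adjusted p = 0.00841) and Pcdh19 by 0.42 (adjusted p = 0.00834). The falls of Pcdh9 (0.26) and Pcdh11x (0.30) there were lost without WT-454 (adjusted p = 0.165 and 0.104) and without WT-1002, and that of Pcdh11x also without WT-527 or WT-1018. In HdhQ150 mice the fall of Pcdh7 (0.34) was lost without 1003 (0.0713), that of Pcdh18 (0.20) without 526 (0.0507), that of Pcdh1 (0.35) without 526 or 1001 (0.0555 to 0.0558), and that of Pcdh10 (0.21) without 451, 462, 464, 487, 526, 1001, 1003, 1016 or 1023 (0.0508 to 0.155). Pcdh9 also had a second probe set, which gave nearly the same change (-0.27 against -0.26 from 6 to 12 months in WT mice).

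The 12-month mice of both genotypes also differed in marker genes of other cells. The 11 measured markers of cortical excitatory neurons had group means, relative to the mean of all mice, of 0.25 (WT) and 0.24 (HdhQ150) for the youngest mice. At 12 months these means were -0.35 (WT) and -0.62 (HdhQ150), and at 18 months 0.43 (WT) and 0.32 (HdhQ150). Of these 11, 7 fell from 6 to 12 months in WT and 8 in HdhQ150 mice, whereas 12 and 11 of the 18 measured markers of striatal projection neurons rose. Thalamic markers fell for 4 and 2 of 7 and astrocyte markers for 3 and 4 of 10. The thalamic means at 6, 12 and 18 months were 0.31, -0.25 and 0.08 in WT mice. In HdhQ150 mice they were 0.17, -0.32 and 0.10. For astrocytes they were 0.11, -0.13 and 0.05 in WT and 0.06, -0.14 and 0.10 in HdhQ150 mice. Mice of 1 group differed too, with thalamic means of -0.18 to 0.87 among 6-month WT mice. Of all genes, 12.6% fell and 13.1% rose in WT mice over this span, and 11.2% fell and 11.9% rose in HdhQ150 mice. The mean of the 12 single protocadherins was 0.11, -0.13 and -0.05 in WT mice at 6, 12 and 18 months. In HdhQ150 mice it was 0.12, -0.05 and 0.01. The part of these cell types in the age changes of the single protocadherins was not tested.

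The clustered genes were also compared between ages. From 6 to 18 months in HdhQ150 mice 6 of the 22 rose (Pcdhb2, Pcdhb3, Pcdhb8, Pcdhb9, Pcdhb12 and Pcdhb21) and none fell, against 2.28% of all genes. All 22 differences were above 0 with a median of 0.25. The number that rose was 3 with mouse 1023 entered as male or after median centring. It was 11 with array weights or without both WT-454 and 1023. Of the same 22 genes, 11 were higher in every 18-month than in every 6-month HdhQ150 mouse, against 5.08% of all genes. As these genes varied together among mice, the 11 are not separate results. In WT mice no clustered gene passed over the same span, the median was 0.05, 13 of 22 lay above 0, and 1 did not overlap (Pcdhb8), against 4.73% of all genes. Without the term for sex Pcdhb2 and Pcdhb8 rose in WT mice (adjusted p = 0.0389 and 0.0463), with a median of 0.10 and 17 of 22 above 0. The difference between the genotypes in this change passed for 0 of 34 genes, as given above. The 18-month HdhQ150 mice enter both this comparison and that of genotypes at 18 months, so the 2 are not independent.

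Pcdhb2 and Pcdhb21 were the clustered genes whose HdhQ150 rise passed in every fit that left out 1 mouse. Pcdhb2 was 7.14, 7.06, 7.20, 7.18 and 7.20 at 6 months and 7.55, 8.03, 7.71 and 7.79 at 18 months. The rise was 0.60 (SE 0.115, 1.51-fold, limma adjusted p = 0.00289, and at most 0.019 without any 1 mouse). In WT mice Pcdhb2 was 6.93, 7.04, 6.81, 7.10 and 7.33 at 6 months and 7.42, 7.65, 7.47 and 7.19 at 18 months, a difference of 0.35 (SE 0.119, adjusted p = 0.0718) with overlapping groups. Pcdhb21 was 6.41, 6.50, 6.28, 6.15 and 6.72 (mouse 1023) in HdhQ150 mice at 6 months, below all 18-month values given above, and rose by 0.49 (SE 0.105, 1.4-fold, adjusted p = 0.00644). In WT mice it differed by -0.02 over the same span (SE 0.109, adjusted p = 0.947), and the difference of the changes was 0.50 (SE 0.148, adjusted p = 0.598). The other calls each rested on some of the mice: Pcdhb12 (0.43) was lost without 412 (0.0536), Pcdhb8 (0.44) without 412, 415, 1016 or 1017, Pcdhb9 (0.54) without 383, 412, 415, 426, 1016 or 1017, and Pcdhb3 (0.62) without 412, 426, 1001, 1003, 1016 or 1017 (0.0521 to 0.174).

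Pcdhb8 was the clustered gene that rose with age in both genotypes. In WT mice it was 7.47, 7.71, 7.70, 7.93 and 7.77 at 6 months and 7.77 (WT-454), 8.07, 8.21, 8.42 and 8.21 at 12 months, a rise of 0.37 (SE 0.108, limma adjusted p = 0.0131) that passed without any 1 mouse. In HdhQ150 mice it rose by 0.30 from 6 to 12 months (SE 0.103, adjusted p = 0.0364), lost without 451, 464, 487, 1003, 1016 or 1017 (0.0599 to 0.122). Its genotype difference at 12 months was -0.11 (SE 0.103, adjusted p = 0.898), the only one of the cluster below 0, and without WT-454 those of Pcdhb10, Pcdhb14 and Pcdhb19 were below 0 too. Pcdhb21 rose from 6 to 12 months in HdhQ150 mice by 0.33 (SE 0.0947, adjusted p = 0.0117) without loss in any such fit, and Pcdhb14 by 0.33 (SE 0.12, adjusted p = 0.0484), lost without 451, 453, 464, 487, 526, 1003, 1016, 1017 or 1023 (0.0505 to 0.138).

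No gene on the lists of genes known to act with protocadherins passed in a comparison of genotypes. Of 19 measured genes of promoter choice and chromatin at the clusters (Ctcf, cohesin subunits and loaders, Smchd1, DNA methyltransferases and the Setdb1 group) 0 passed at any age. Their medians were -0.15, 0.01 and 0.07 at 6, 12 and 18 months. At these ages 8, 2 and 0 of the 19 had an unadjusted p under 0.05, against 13.7% of all genes at 6 and 5.81% at 18 months. The share of all genes at 12 months is not given here. The 2 listed genes with the smallest p were the cohesin genes Smc3 (-0.42, SE 0.136, limma adjusted p = 0.184) and Smc1a (-0.20, SE 0.0694, adjusted p = 0.199), both at 6 months. Of 21 measured intracellular partners, such as the WAVE complex that binds the tails of delta protocadherins, 0 passed at any age by limma. An unadjusted p under 0.05 was found for 4, 3 and 3 of the 21, against the same shares of all genes. Abi1 (-0.24, SE 0.0632, adjusted p = 0.134) and Nckap1 (-0.24, SE 0.071, adjusted p = 0.153), both WAVE complex subunits, were lower in HdhQ150 mice at 6 months without passing.

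Other adhesion genes set the protocadherins in context. Of 20 classical and type II cadherins 0 passed at any age (medians 0.00, 0.03 and -0.01). An unadjusted p under 0.05 was found for 3, 5 and 3 of the 20, against 13.7% of all genes at 6 and 5.81% at 18 months. The share at 12 months is not given here, so the 5 of that age cannot be set against it. Among these cadherins, Cdh4 (-0.38, SE 0.11, limma adjusted p = 0.106) and Cdh18 (0.29, SE 0.0834, adjusted p = 0.107) had the smallest p, both at 12 months. Of 17 giant and seven-pass cadherins 1 rose at 12 months, Fat1, a giant cadherin of cell polarity (0.43, SE 0.0791, adjusted p = 0.00333), and 0 passed at the other ages. Of 33 other synaptic adhesion genes 1 fell at 12 months, the contactin Cntn5 (-0.57, SE 0.0949, adjusted p = 0.00118), and 0 passed at the other ages. At 12 months 187 of the 19938 genes tested passed in either direction.

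Markers of other cell types that moved with genotype are given beside the clustered shift. Of the 19938 genes tested, 5, 187 and 27 passed in either direction between genotypes at 6, 12 and 18 months. Of the 18 measured striatal projection neuron markers 0, 5 and 4 fell in HdhQ150 mice at 6, 12 and 18 months, with medians of -0.16, -0.26 and -0.30. They were Penk, Gpr6, Pde10a and Scn4b at both later ages (Penk -0.51 and -0.73) and Cnr1 (-0.61) at 12 months. Their mean per mouse was -0.13 in WT and -0.49 in HdhQ150 mice at 18 months, without overlap (lowest WT -0.23, highest HdhQ150 -0.25). The 8 oligodendrocyte precursor markers had a mean of -0.04 (highest 0.01) in WT and 0.11 (lowest 0.04) in HdhQ150 mice at 18 months, and Olig1 rose at 12 months (0.37, limma adjusted p = 0.0168). At the earlier ages the precursor means in WT and HdhQ150 mice were 0.00 and 0.09 (6 months) and -0.13 and -0.02 (12 months). S100b, on the astrocyte list, rose at 12 and 18 months (0.38 and 0.47, adjusted p = 0.0051 and 0.00916), while the other 9 astrocyte markers did not pass. Of the cortical, thalamic, interneuron, oligodendrocyte, microglial, vascular and choroid plexus markers 0 passed in any comparison of genotypes by limma (0 to 5 of a list at an unadjusted p under 0.05). Of all genes 13.7% had such an unadjusted p at 6 months and 5.81% at 18 months, and the share at 12 months is not given here. The 9 oligodendrocyte markers nevertheless had medians of -0.06, 0.21 and 0.26 at 6, 12 and 18 months, with 3, 6 and 6 of 9 above 0. The part of these cell types in the clustered shift was not tested.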

How the data were processed

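Total RNA of the caudate nucleus of 29 mice was, per the labels' protocols, isolated by TRIzol-chloroform extraction and biotin-labelled using a WT labeling kit (Affymetrix). The authors deposited log2 expression levels. The submitters' processing notes name Expression Console (Affymetrix) with RMA, and neither version nor options were stated in the sources used here. Array medians lay between 6.91 and 7.05 and single values between 1.08 and 14.11, pairs of arrays correlated between 0.938 and 0.995 over the tested genes, and 0 pairs were identical. The number of arrays limits the precision.

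Of 35556 probe sets, 21789 had 1 gene symbol in the platform annotation, 1621 several and 12146 none; 21698 matched RefSeq (GRCm38.p6, used for names, gene order and promoter windows). A protocadherin probe set with several symbols (1) was left out. The probe set with the highest mean stood for each of 19938 genes. limma 3.58.1 in R 4.3.3 was fitted to all arrays with 6 group means and the labelled sex (22 residual degrees of freedom, eBayes with trend), two-sided, with Benjamini-Hochberg adjustment over all genes, and tested on simulated data. Replicates are separate mice by their numbers in the labels, groups shared no replicate numbers, and group means, ranges and SDs carry no sex term. Alternatives changed the sex term, the mice, the weights, the centring, the probe sets and the moderation; the correlations, means and gene order without WT-454 were added after seeing the data.

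The members and lists were chosen with earlier results of these data known. Named were all single genes, the clustered genes past the threshold in any comparison and the 3 others with the smallest p in each genotype comparison, Htt, and of each other list the genes past the threshold for genotype or, with none, the 2 with the smallest p; clustered genes beyond that rule are named by the counts they belong to.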

Additional observations from a re-analysis of the deposited data

Results flagged for a closer look

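Of 216 sets of values checked (each gene and mean in each group), 17 had a lowest or highest mouse far from the rest of its group by Dixon's criterion, where chance gives about 1 in 20. Of these, 11 were the 12-month WT mouse WT-454, always as the lowest: Pcdh10 at 9.11 (next mouse 9.52), Pcdh7 at 8.41 (8.67), Pcdh9 at 9.50 (9.91), Pcdhb6 at 6.99 (7.68), Pcdhb9 at 5.74 (6.53), Pcdhb10 at 6.14 (6.85), Pcdhb14 at 6.33 (7.31), Pcdhb16 at 6.67 (7.41), Pcdhb19 at 5.88 (6.92), Pcdhb21 at 6.07 (6.42) and the mean of the clustered genes at -0.53 (-0.08). The whole array of WT-454 also stood apart, so these are not separate events.

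The other 6 lay in different mice. Pcdh11x was low in the 18-month HdhQ150 mouse 426 (8.87, next 9.06) and Pcdh17 low in the 18-month WT mouse WT-401 (9.11, next 9.35). Pcdh8 was high in the 12-month HdhQ150 mouse 462 (7.34, next 6.94). Pcdhb13 was high in the 6-month HdhQ150 mouse 1016 (7.64, next 7.51), Pcdhb6 low in 1003 of the same group (7.48, next 7.67), and Pcdhb8 high in the 18-month HdhQ150 mouse 412 (8.26, next 8.20).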

How the results depend on the processing

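None of the differences that passed reversed under any alternative. The clustered median stayed between 0.14 and 0.29 at 12 months and between 0.21 and 0.27 at 18 months when mice were left out in turn; at 6 months it ran from -0.07 to 0.03. The single-gene median ran from -0.03 to 0.04, 0.01 to 0.07 and -0.01 (-0.0054) to 0.13 at the 3 ages, the last reaching 0.13 without 383, and it was 0.13 among the upper 50% of genes by level. Counts of protocadherins past the threshold were less steady, and the counts of all genes moved between fits too. Between genotypes at 12 months 187 of all genes passed in the main fit. Under the alternatives that number ran from 103 (only the groups compared) to 656 (array weights). Between genotypes at 12 months the count of 1 became 0 without the sex term, in labelled females alone, with only the groups compared, without both WT-454 and 1023 or after median centring, and 2 among the upper 50% of genes; it ran from 0 to 6 over single mice. At 18 months the 0 became 2 with array weights and 1 without both mice, and was 0 without any 1 mouse of those groups. All genes past the threshold there were 27 in the main fit, 36 with array weights and 43 without both mice. The 10 of WT 12 against 6 months became 5 in females alone (8 to 12 over single mice), and the 10 of HdhQ150 became 5 there (5 to 11). All genes past the threshold went from 5121 to 2434 and from 4599 to 3111 in females alone. WT 18 against 12 months went from 0 to 1 without the sex term and 1 among the upper 50% (0 to 2), and WT 18 against 6 months from 2 to 4 without the sex term, which added Pcdhb2 and Pcdhb8 (1 to 3). HdhQ150 18 against 12 months went from 4 to 1 with only the groups compared (0 to 5), where all genes past the threshold went from 1154 to 707. HdhQ150 18 against 6 months went from 7 to 4 with 1023 entered as male, after median centring or among the upper 50%. It went to 12 with array weights or without both mice (2 to 8 over single mice). All genes past the threshold there went from 927 to 2489 with array weights and to 1646 without both mice. They were 820 with 1023 entered as male, 877 after median centring and 843 of 9969 among the upper 50%. Of the 34 calls on single members, 13 passed in every fit without 1 mouse of the groups compared; the cause of the other losses was not tested. No paired analysis was possible because the groups share no replicate numbers. With 4 to 6 mice a group, few genotype differences of the clustered genes passed, and size alone did not set which did. At 12 months Pcdhb15 passed while the larger difference of Pcdhb21 did not.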
